A study of Mus musculus with 17 samples.

Results

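Cholesterol biosynthesis was followed through 7 of its enzyme genes, *Hmgcs1*, *Idi1*, *Fdps*, *Fdft1*, *Sqle*, *Lss* and *Cyp51*, in germ cells that had lost *Nat10*. The genes were taken by their symbols from a table of 23282 genes. Of the 7 genes, 6 held reads, and *Hmgcs1* was listed at 0 in all 17 libraries, as were 2164 genes of the table. Whether the 0 of *Hmgcs1* reflects the cells or the counting could not be told from these values. RNA was measured with Smart-seq2 in C57BL/6 mice (C57BL/6J in the study's methods), in germ cells separated by FACS on Hoechst and propidium iodide. Spermatogonia (SPG) divide and enter meiosis as pre-leptotene spermatocytes (PreL), and the next gate, LZ, held leptotene/zygotene spermatocytes. WT and *Nat10*-SKO mice each gave 3 libraries of SPG and 3 of PreL, and LZ was covered by 2 WT and 3 SKO libraries. SKO mice carry 1 floxed and 1 deleted *Nat10* allele and Stra8-GFPCre, whose recombinase removes exons 4 and 5 of *Nat10*. This Cre is driven by *Stra8*, a gene switched on as spermatogonia differentiate, so germ cells before that step and the somatic cells of the testis keep the floxed allele. The ages of the mice and the number of mice behind each library are not given in the sources used here. A figure legend of the study calls the replicates biological, without saying how many mice each holds. The p-values therefore measure the spread between libraries, which may still be technical in part.

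NAT10 is the acetyltransferase that places N4-acetylcytidine on RNA. Cholesterol is built from acetyl-CoA. HMGCS1 makes HMG-CoA, from which the early steps lead through mevalonate to isopentenyl diphosphate. IDI1 isomerises isopentenyl diphosphate, FDPS joins the units to farnesyl diphosphate, and FDFT1 joins farnesyl diphosphate to squalene, the first step committed to sterols. SQLE oxidises squalene, LSS closes the ring to lanosterol, and CYP51 demethylates lanosterol to FF-MAS, a sterol first known from its action on meiosis in oocytes. The transcription factor SREBP-2, the product of *Srebf2*, is freed from its membrane when sterols are low and drives most genes of the pathway together with NF-Y, while INSIG proteins hold it back. Farnesyl diphosphate also feeds dolichol, ubiquinone and the prenyl groups of proteins.

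The promoters are shown because these enzymes are commonly driven as a set. RefSeq promoter sequences of GRCm38.p6 were matched for 4 of the 7 genes. *Fdps*, *Fdft1* and *Sqle* had no match. Each line gives the 250 bases before the annotated start on the gene's own strand, 5′ to 3′, and capitals mark CCAAT or its complement ATTGG, the core of the NF-Y box, and in *Hmgcs1* also the sterol regulatory element TCACNCCAC.
Hmgcs1, chr13:119690101-119690350, plus strand: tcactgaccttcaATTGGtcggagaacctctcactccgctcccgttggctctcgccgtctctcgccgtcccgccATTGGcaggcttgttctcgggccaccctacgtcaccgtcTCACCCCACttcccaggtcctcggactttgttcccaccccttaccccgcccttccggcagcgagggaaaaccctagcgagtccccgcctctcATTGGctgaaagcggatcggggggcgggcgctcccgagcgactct
Idi1, chr13:8885356-8885605, plus strand: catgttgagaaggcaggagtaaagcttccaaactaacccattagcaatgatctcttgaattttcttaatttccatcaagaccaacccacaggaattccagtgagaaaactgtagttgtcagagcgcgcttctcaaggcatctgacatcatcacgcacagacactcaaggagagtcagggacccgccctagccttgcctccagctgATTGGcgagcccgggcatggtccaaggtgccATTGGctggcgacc
Lss, chr10:76531355-76531604, plus strand: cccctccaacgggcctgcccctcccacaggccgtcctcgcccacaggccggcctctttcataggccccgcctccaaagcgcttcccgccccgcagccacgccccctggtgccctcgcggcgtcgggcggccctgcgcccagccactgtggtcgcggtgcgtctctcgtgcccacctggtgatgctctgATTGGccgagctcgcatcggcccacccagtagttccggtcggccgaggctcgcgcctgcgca
Cyp51, chr5:4104698-4104947, minus strand: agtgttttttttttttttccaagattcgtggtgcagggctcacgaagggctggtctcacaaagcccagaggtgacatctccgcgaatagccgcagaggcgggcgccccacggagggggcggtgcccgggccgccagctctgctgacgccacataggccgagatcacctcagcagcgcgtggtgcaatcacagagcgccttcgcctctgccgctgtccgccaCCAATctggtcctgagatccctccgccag
CCAAT was found on either strand in all 4 promoters, 3 times in *Hmgcs1*, 2 times in *Idi1* and 1 time each in *Lss* and *Cyp51*, against 33.8% of 32851 mouse promoters of the same length. GGGCGG, the GC box, was found in all 4, against 32.7% of promoters. TCACNCCAC was found in *Hmgcs1* alone of these 4 (1.05% of promoters), and the cAMP response element TGACGTCA in none of the 4 (1.55%). Only these exact letters were searched, so a promoter without a match may still hold a variant of the element. These matches describe letters in a window, not bound sites.

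The genes lie on 6 chromosomes of GRCm38 (mm10). The spans given here are those of GENCODE, whose starts differ from the RefSeq starts used for the promoters. The promoter windows of *Idi1*, *Lss* and *Cyp51* therefore run into these spans. *Hmgcs1* spans chr13:119690379-119708260, with 12.1% of its exonic bases opposite *Gm48342*, and *Idi1* spans chr13:8885501-8892451, with 9.22% opposite *Gm48574*, both on the plus strand. *Fdps* spans chr3:89093588-89101959 on the minus strand and shares 26.7% of its exonic bases with *Gm43738* on the same strand. *Fdft1* spans chr14:63145150-63179578 on the minus strand, and 18.3% of its exonic bases lie opposite *Ctsb*, the gene of cathepsin B. *Sqle* (chr15:59315077-59331192) shares no exonic base with another gene, and for *Lss* (chr10:76531588-76557138) and *Cyp51* (chr5:4081145-4104746, minus strand) the shared parts are 3.53% and 3.76%. The library protocol is not stated to keep strand, so reads in the shared parts cannot be assigned, and the values of *Fdps* and *Fdft1* carry this limit throughout.

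The recovered reads numbered 9885136 to 13042071 per library in SPG, 10574858 to 11268541 in PreL, 13666762 to 13820953 in WT LZ and 5812380 to 7609420 in SKO LZ. *Nat10* was lower in SKO, with a log2 change of -0.87 in SPG (adjusted p = 0.0325), -1.29 in PreL (adjusted p = 0.00591) and -1.47 in LZ (adjusted p = 0.00469, limma). Markers were read in the sorted cells. In SPG germ cell genes summed to 60097 to 74875 per library on the rescaled values described below. Early meiotic genes summed to 56340 to 85442 and undifferentiated spermatogonia genes to 98.2 to 511. These values are not corrected for gene length, so the sums of different lists do not give the shares of cell types. In these bulk samples, fewer cells of a type and less RNA per cell cannot be told apart.

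Per length of exon, *Idi1* had the highest level of the genes in WT SPG, 79.5 RPKM (reads scaled to exon length and to the reads of the library), followed by *Fdps* at 46.7, *Cyp51* at 22.4, *Sqle* at 20.5, *Fdft1* at 17.8 and *Lss* at 4.09 (means, n = 3). In WT LZ *Idi1* was at 58.8 ± 13.1 RPKM, *Fdft1* at 42.8 ± 16.5 and *Fdps* at 38.8 ± 18.6 (SD, n = 2), and *Fdft1* had fewer reads than *Fdps* in library 2 (1819 and 3024) and more in library 3 (3147 and 1478). All other values below are rescaled values, the deposited ERCC-calibrated counts divided by median-of-ratios size factors. They compare libraries of the same gene, and their scale is set anew for the libraries of each comparison.

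On the scale of all 17 libraries, the 6 genes together summed to 16883 to 17740 in WT SPG and to 8756 to 9751 in SKO SPG. WT PreL reached 13476 to 14430 and SKO PreL 10485 to 11712. WT LZ stood at 12989 and 18096, and SKO LZ at 11047 to 11297. On this scale every SKO sum lay below every WT sum of its stage. In LZ this order held for *Idi1* and *Fdft1* alone of the 6 genes. *Lss* and *Cyp51* had every SKO library above both WT libraries there, and *Fdps* and *Sqle* overlapped. On the ERCC-calibrated scale, in contrast, the mean sum relative to WT SPG was higher in SKO PreL (1.10) than in WT PreL (0.821). WT SPG had the highest group mean for *Idi1*, *Fdps*, *Sqle*, *Lss* and *Cyp51*, and WT LZ for *Fdft1*.

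The order of the groups differed between the genes. For *Idi1* the group means fell from 5984 ± 413 in WT SPG (SD, n = 3) to 2848 ± 80.5 in SKO LZ (SD, n = 3). WT PreL, which did not overlap WT SPG, came next, then WT LZ and SKO PreL, each overlapping its neighbour among them. The mean of SKO SPG was lower, without overlap with SKO PreL. Its highest library, 3524, still exceeded WT LZ library 2 at 3384, and SKO SPG overlapped SKO LZ. For *Fdps* the lowest group was SKO SPG at 1750 ± 353 (SD, n = 3), which overlapped SKO PreL. *Cyp51* had both LZ groups at the bottom, WT LZ at 939 ± 103 (SD, n = 2) and SKO LZ at 1131 ± 93.7 (SD, n = 3), and neither overlapped its neighbour in the order. *Lss* was lowest in SKO SPG at 490 ± 130 (SD, n = 3) and SKO PreL at 516 ± 17.5 (SD, n = 3), whose ranges overlapped. The highest group mean exceeded the lowest by 4.09 times for *Fdft1* and by 1.76 to 2.41 times for the other 5 genes.

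**Figure D1:**
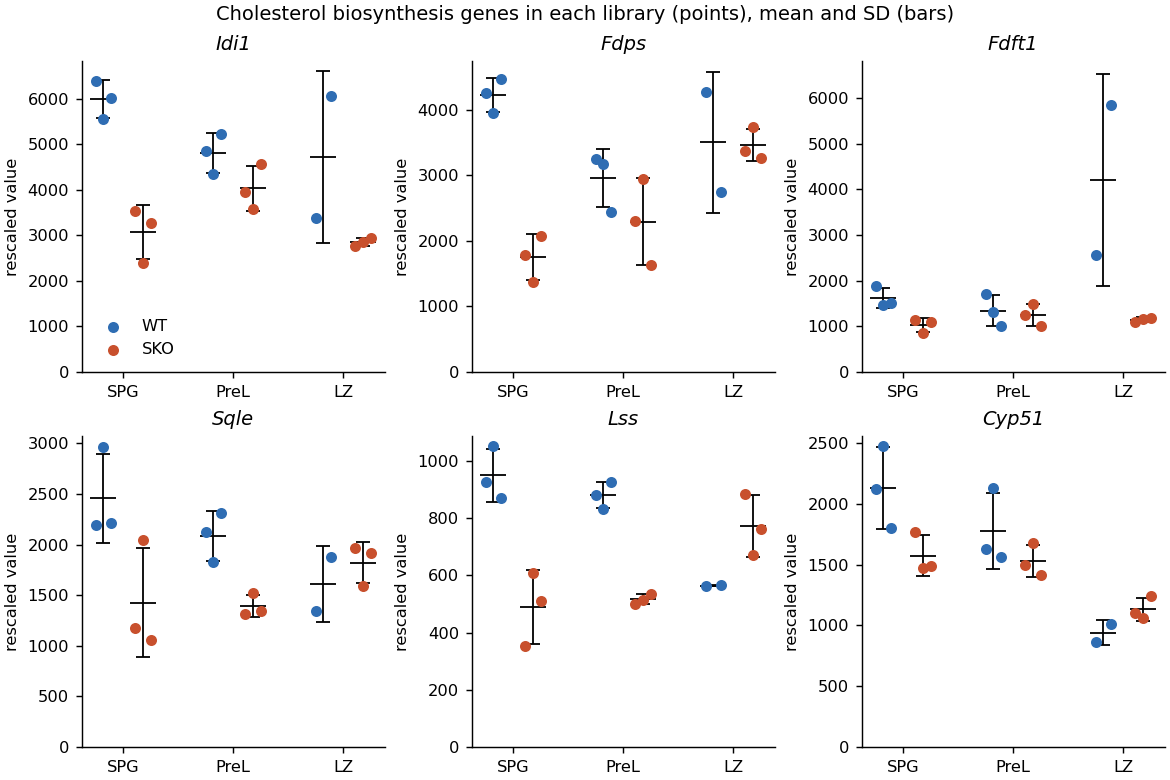
Rescaled values (y axis, from 0) of *Idi1*, *Fdps*, *Fdft1*, *Sqle*, *Lss* and *Cyp51* in each of the 17 libraries, by stage, for WT (blue) and SKO (orange), with the mean and SD of each group as black bars. In SPG all SKO points lie below all WT points for the 6 genes, and in LZ the 2 WT points of *Fdft1* (2567 and 5844) lie far apart and above the SKO points.

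Loss of *Nat10* was first compared within SPG. All 6 genes with reads were lower in SKO, and in each of the 6 every SKO library lay below every WT library, against 14.4% of the genes tested that did so. Under the thresholds stated in the study's methods, an adjusted p under 0.05 and a log2 change beyond 1, 1 of the 6 genes was called, *Fdps*, against 2.07% of all genes tested called lower. With the adjusted p alone 5 of the 6 passed, against 4.85% of all genes. The median log2 change of the 6 was -0.91, beside 0.0012 over all genes tested.

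*Idi1*, the gene of the isomerase, stood at 3914, 3368 and 3672 in the WT libraries 1, 2 and 3 and at 2119, 1447 and 1979 in the SKO libraries 1, 3 and 4. The highest SKO library thus lay well under the lowest WT library, and the log2 change was -0.99 (SE 0.15, adjusted p = 0.00127, limma), just short of the fold threshold. *Fdps*, which makes the branch point of sterols and other isoprenoids, stood at 2608, 2395 and 2729 in WT and at 1077, 831 and 1261 in SKO. No WT value came near the SKO range, the SKO mean was 0.410 times the WT mean, and the log2 change of -1.30 (SE 0.16, adjusted p = 0.000364) was the largest fall of the 6 genes.

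*Fdft1*, the squalene synthase gene, was at 1147, 886 and 927 in WT and at 684, 516 and 660 in SKO, a log2 change of -0.66 (SE 0.18, adjusted p = 0.0319). The groups were closer here than for the enzymes just upstream. *Sqle*, which encodes the rate-setting epoxidase after squalene, was at 1344, 1798 and 1352 in WT and at 708, 1232 and 638 in SKO. Library 3 was the highest of the SKO libraries and came close to the WT range, and the log2 change was -0.84 (SE 0.22, adjusted p = 0.0282).

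*Lss*, the cyclase gene, was at 569, 638 and 532 in WT and at 211, 367 and 309 in SKO, a log2 change of -0.98 (SE 0.24, adjusted p = 0.0183). *Cyp51* was at 1300, 1499 and 1098 in WT and at 1065, 885 and 899 in SKO. Its groups were separated by little, and its log2 change of -0.44 (SE 0.16, adjusted p = 0.0999) did not pass the test. Every fit that left out 1 SPG library kept *Idi1* and *Fdps* under an adjusted p of 0.05. *Fdft1* and *Lss* stayed under it in 2 of these 6 fits and *Sqle* in 1, with adjusted p up to 0.123, 0.0631 and 0.120. The called count of 1 rose to 2 without SKO library 1 or WT library 2 and to 3 without SKO library 3 or 4, since *Idi1*, *Lss* or *Sqle* then passed the fold threshold.

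**Figure D2:**
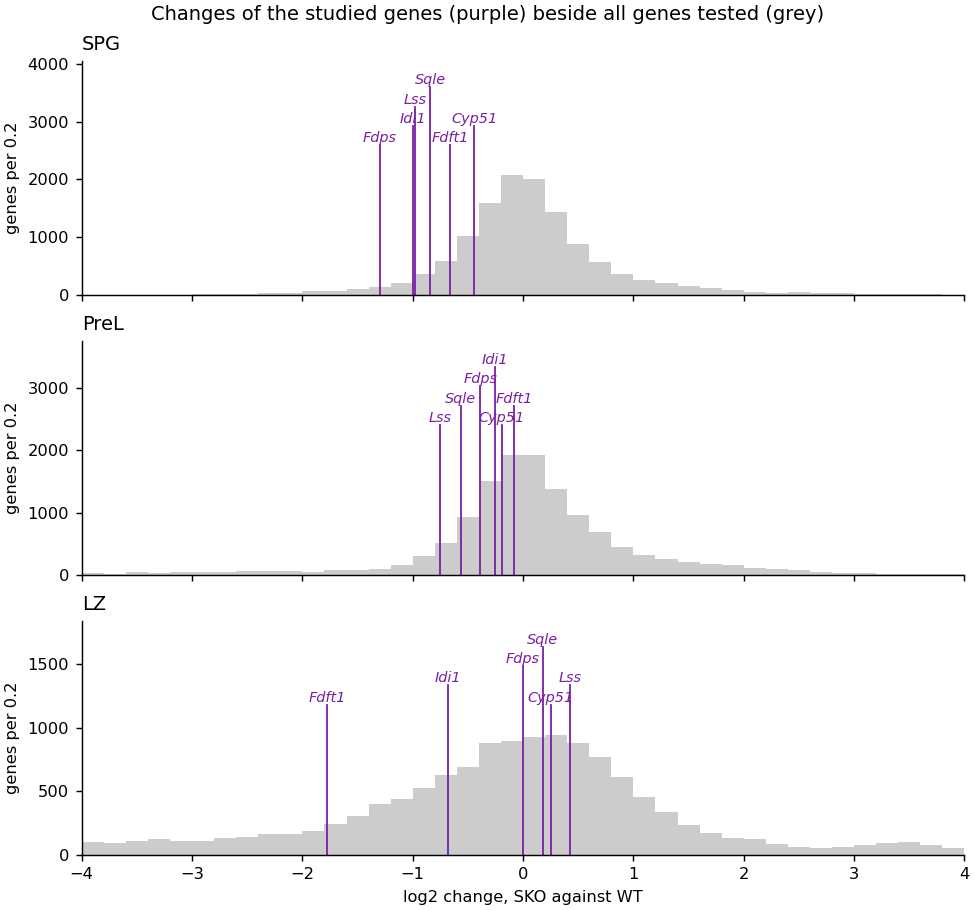
Number of genes tested (y axis) by log2 change of SKO against WT (x axis, bins of 0.2) in SPG, PreL and LZ, with purple lines at the studied genes. The 6 genes lie to the left of the centre in SPG (-1.30 to -0.44) and PreL (-0.75 to -0.08, of which 5 turn positive on the ERCC-calibrated scale) and on both sides of it in LZ.

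The other steps of the pathway and its control were read from lists of 37 further genes. In SPG 4 of the 36 that could be tested were called lower and 1 higher, against 2.07% of all genes called lower and 3.95% called higher. Of the 4 genes of the mevalonate steps on these lists none was called, while 3 of the 4 had negative log2 changes. The median of the 4 was -0.57, beside 0.0012 over all genes tested.

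Of the 9 listed genes that act after squalene, 3 were called lower in SPG and none higher. These were *Hsd17b7*, the sterol ketoreductase gene (-1.20, adjusted p = 0.0139), *Dhcr7*, which closes the pathway (-1.09, adjusted p = 0.0214), and 0610007P14Rik (-1.04, adjusted p = 0.0131). The last was named after its values were seen. The other 6 genes of the list did not pass, among them *Lbr* at 0.01 and *Sc5d* at -0.01, also named after their values were seen. Of the 9 genes, 7 had negative log2 changes, and the median of the 9 was -0.70, beside 0.0012 over all genes tested.

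Among the genes that control SREBP, *Insig1*, itself a target of SREBP, was called lower. It stood at 3474, 7098 and 5566 in WT and at 3103, 2497 and 1573 in SKO, a log2 change of -1.16 (SE 0.25, adjusted p = 0.0101). *Srebf2* was at 314 ± 65.6 in WT and 179 ± 44.6 in SKO (SD, n = 3 each), without overlap, but did not pass the test (-0.79, adjusted p = 0.103).

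Of the 6 genes of cholesterol efflux and esterification, 1 was called higher in SPG and none lower. It was *Abcg1*, a sterol exporter and a target of the liver X receptors, at 259, 619 and 482 in WT and at 1001, 1034 and 991 in SKO (1.22, SE 0.26, adjusted p = 0.00894). The SKO libraries were close to each other and above all WT libraries. *Abca1*, the exporter to apolipoprotein A-I, passed the adjusted p at 0.0118 with a log2 change of 0.89.

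**Figure D3:**
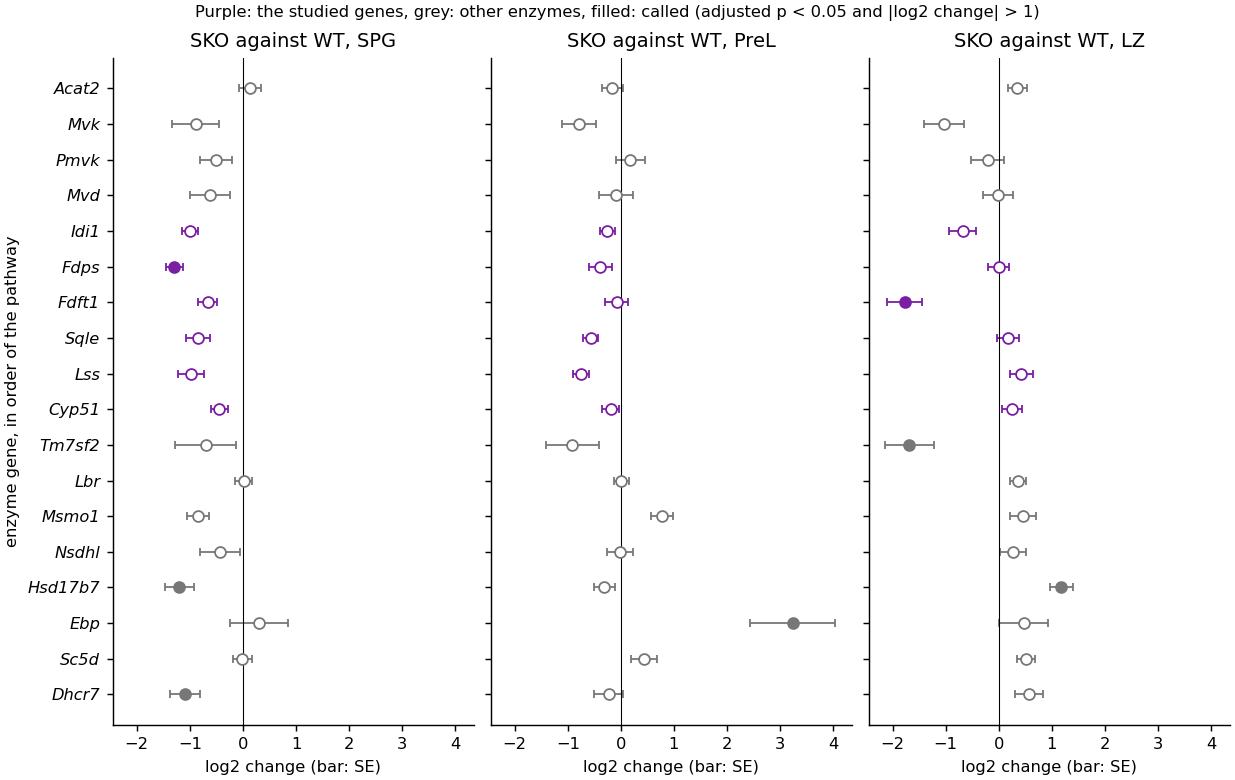
Log2 change of SKO against WT with its SE (x axis) for 18 enzyme genes in the order of the pathway (y axis), in SPG, PreL and LZ. Purple marks the studied genes, grey the other enzymes, and filled points the called genes. In SPG the called genes are *Fdps*, *Hsd17b7* and *Dhcr7*, all lower.

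Markers of other cells moved with genotype in the same libraries. The summed level of 7 Leydig cell genes, steroid-forming cells that handle cholesterol themselves, was 127 to 336 in WT SPG and 1303 to 4881 in SKO SPG. All 7 had reads in SKO SPG, and *Lhcgr* was at 0 in WT SPG. The 6 macrophage genes summed to 154 to 278 in WT SPG and 1218 to 2624 in SKO SPG, and the 7 immediate early genes, which respond within minutes to dissociation and other stimuli, to 602 to 645 and 4320 to 9181. The 5 peritubular myoid genes summed to 17.5 to 95.2 in WT SPG and 736 to 1439 in SKO SPG, and the 8 Sertoli cell genes to 587 to 819 and 1077 to 1902.

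Late germ cell genes went in the opposite direction. The 7 spermatid genes summed to 2245 to 6036 in WT SPG and 93.7 to 172 in SKO SPG, where *Acrv1* was at 0, and the 7 late spermatocyte genes to 3664 to 4957 and 1209 to 3743. The 7 early meiotic genes summed to 56340 to 59595 in WT SPG and 83616 to 85442 in SKO SPG. The part of these cells in the differences of the cholesterol genes was not tested. In the SKO SPG libraries 1, 3 and 4 the Leydig sum was 4881, 2376 and 1303, and the 6 cholesterol genes summed to 9751, 8756 and 9483.

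**Figure D4:**
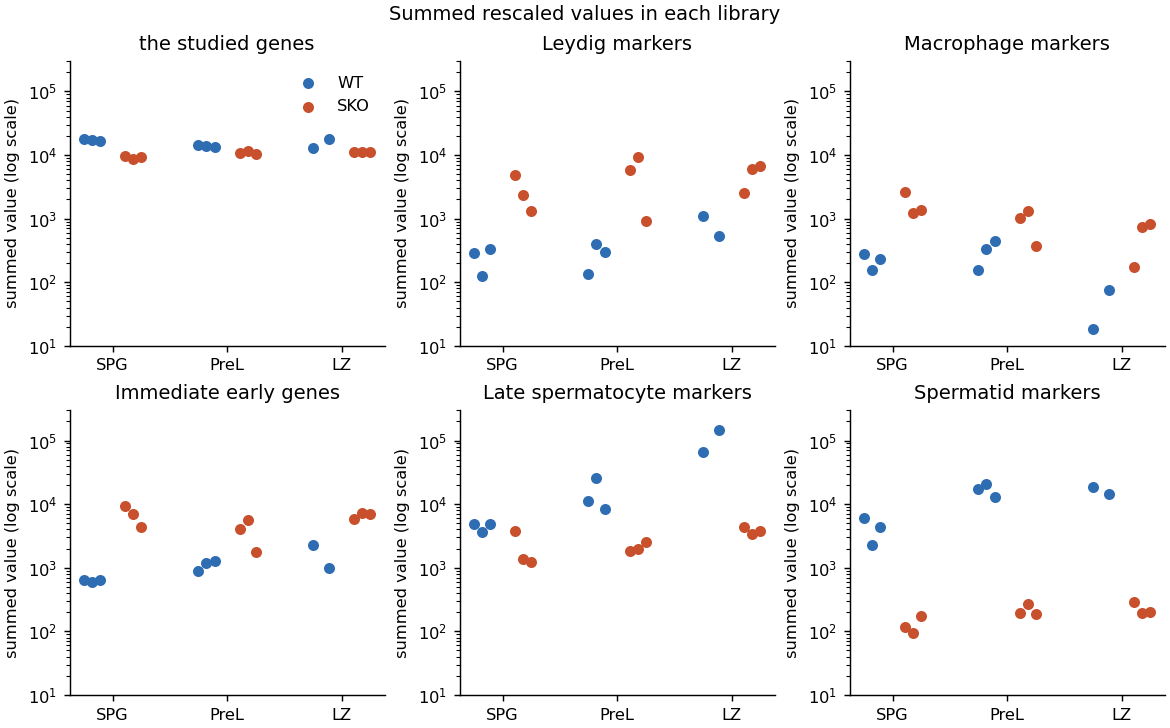
Summed rescaled values in each library (y axis, log scale) of the studied genes and of 5 marker lists, by stage, for WT (blue) and SKO (orange). In SPG the Leydig sum is 127 to 336 in WT and 1303 to 4881 in SKO, and the spermatid sum 2245 to 6036 in WT and 93.7 to 172 in SKO.

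In PreL no member of the 6 genes was called in either direction, against 5.83% of all genes called lower and 5.34% called higher. DESeq2 and edgeR also called 0 of the 6, and by limma 2 had an unadjusted p under 0.05. The log2 changes ran from -0.75 to -0.08 on the rescaled values and from -0.04 to 0.64 on the ERCC-calibrated values, with a median of -0.32 beside 0.037 over all genes on the former. With the adjusted p alone *Sqle* and *Lss* passed as lower, against 10% of all genes, and these 2 genes were also those without overlap between genotypes, against 20%.

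*Lss* was at 779, 741 and 822 in the WT PreL libraries 1, 2 and 4 and at 445, 459 and 474 in the SKO libraries 1, 2 and 3. The libraries of each genotype were close together, and the log2 change was -0.75 (SE 0.16, adjusted p = 0.0118). *Sqle* was at 1870, 1620 and 2049 in WT and at 1176, 1357 and 1195 in SKO (-0.56, SE 0.14, adjusted p = 0.0245). Without SKO library 1 the adjusted p rose to 0.0695 for *Lss* and 0.124 for *Sqle*, and without WT library 1 or 4 *Sqle* stood at 0.0536 and 0.0566.

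The other 4 genes overlapped between genotypes in PreL. *Idi1* was at 4279, 3865 and 4643 in WT and at 3524, 3182 and 4049 in SKO (-0.25, adjusted p = 0.218). *Fdps* was at 2873, 2812 and 2170 in WT and spread from 1444 to 2629 in SKO (-0.39, adjusted p = 0.236). *Fdft1* had a log2 change of -0.08 (95% interval -0.56 to 0.40) and *Cyp51* of -0.19 (95% interval -0.55 to 0.16).

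Of the 36 other pathway genes tested, none was called lower and 3 higher in PreL, beside 5.83% and 5.34% of all genes. *Abcg1* was at 111, 327 and 310 in WT and at 661, 685 and 623 in SKO (1.50, SE 0.36, adjusted p = 0.0216). *Abca1* was at 721, 539 and 691 in WT and at 1690, 2095 and 825 in SKO (1.14, SE 0.31, adjusted p = 0.0323), with SKO library 3 close to the WT range. *Ebp*, the sterol isomerase gene, was called higher with very uneven counts, 57, 5 and 0 reads in WT and 202, 228 and 71 reads in SKO (3.24, SE 0.80, adjusted p = 0.0240). *Insig1*, *Dhcr7* and *Srebf2* did not pass, with log2 changes of -0.03, -0.23 and 0.30.

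The Leydig sum was 134 to 401 in WT PreL and 927 to 9225 in SKO PreL. The Sertoli sum was 17191 and 20276 in the SKO libraries 1 and 2 but 1626 in SKO library 3, below the WT range of 1788 to 1845. The immediate early sum was 883 to 1272 in WT and 1757 to 5616 in SKO, and the late spermatocyte sum 8257 to 25304 in WT and 1866 to 2509 in SKO. The spermatid sum was 12893 to 20978 in WT and 185 to 267 in SKO, the early meiotic sum 90188 to 101289 and 116200 to 183321, and the differentiating spermatogonia sum 21637 to 24954 and 14081 to 17893. *Lss* stood at 474 in SKO library 3, which had the lowest Leydig, Sertoli, peritubular and macrophage sums of the SKO libraries and the highest endothelial sum, and at 445 and 459 in the other two. The part of these cells in the differences was not tested.

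In LZ 1 of the 6 genes was called, *Fdft1*, lower in SKO, against 25.8% of all genes called lower and 13.4% called higher. The median log2 change of the 6 genes was 0.088, beside -0.13 over all genes tested, and 3 of the 6 were negative. Relative to that median, *Idi1* and *Fdft1* lay below and the other 4 genes above, with each of the 4 scalings tried. *Idi1* and *Fdft1* had all SKO libraries below both WT libraries, against 39.8% of all genes, and *Lss* and *Cyp51* had all of them above, against 30.3%.

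*Fdft1* was at 5355 and 12510 in the WT LZ libraries 2 and 3 and at 2291, 2386 and 2490 in SKO. The WT libraries differed from each other by more than the whole SKO range, and both exceeded it. The log2 change was -1.77 (SE 0.33, adjusted p = 0.00316), -1.18 without WT library 3 and -2.41 without WT library 2. The late spermatocyte sum had the same order, at 66916 and 148853 in WT libraries 2 and 3 and 3343 to 4355 in SKO. The Sertoli sum had the opposite order in WT libraries 2 and 3, at 25729 and 7105, and was 15603 to 19086 in SKO. What these cells contributed to the difference was not tested.

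*Idi1* was at 7059 and 12967 in WT LZ and at 5838, 5873 and 6151 in SKO. Again WT library 3 was the highest, and the log2 change of -0.68 (SE 0.25, adjusted p = 0.0533) did not pass, while without WT library 2 it was -1.15 (adjusted p = 0.00355). That fit called 2 of the 6 genes, with the remaining WT library assumed to vary like the SKO group. *Fdps* was at 8902 and 5875 in WT and at 7116, 7709 and 6855 in SKO, so that its SKO libraries lay between the WT libraries (-0.0028, 95% interval -0.48 to 0.47).

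For *Sqle*, *Lss* and *Cyp51* the LZ values gave no call, and with scaling by total reads (RPM) the log2 changes of *Sqle* and *Cyp51* turned to -0.20 and -0.12. *Sqle* was at 2797 and 4007 in WT and at 4134, 3289 and 4013 in SKO (0.18, adjusted p = 0.504). *Lss* was at 1175 and 1212 in WT and at 1865, 1388 and 1601 in SKO (0.43, SE 0.21, adjusted p = 0.133). *Cyp51* was at 1807 and 2166 in WT and at 2314, 2188 and 2596 in SKO (0.25, adjusted p = 0.288), nearly touching.

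Of the 36 other pathway genes tested, 3 were called lower and 7 higher in LZ, beside 25.8% and 13.4% of all genes. After squalene, *Hsd17b7* was called higher (1.18, adjusted p = 0.00287), and *Tm7sf2*, a sterol reductase gene whose step *Lbr* can also take, lower (-1.68, adjusted p = 0.0176). *Mylip*, a ubiquitin ligase gene and a target of the liver X receptors, was higher (1.65, adjusted p = 0.00283). *Mbtps2*, the protease gene that releases SREBP, was higher as well (1.03, adjusted p = 0.0110).

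The largest changes among the 36 genes in LZ were those of *Soat2* and *Ggps1*, which use products of the pathway. *Soat2*, which esterifies cholesterol, was at 2287 and 4738 in WT and at 45219, 26708 and 34027 in SKO (3.39, SE 0.34, adjusted p = 0.000175). *Ggps1*, which makes geranylgeranyl diphosphate from the product of FDPS, was at 8969 and 12072 in WT and at 67914, 46273 and 52603 in SKO (2.40, SE 0.23, adjusted p = 0.000145). For both genes the SKO libraries exceeded WT several times over. *Nus1*, of dolichol synthesis, was higher (1.17, adjusted p = 0.000681), and *Pdss2*, of ubiquinone synthesis, lower (-1.77, adjusted p = 0.0440).

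*Abca1* was higher in LZ as well, at 1760 and 779 in WT and at 4663, 6255 and 6265 in SKO (2.27, adjusted p = 0.00117), whereas *Abcg1* was not (-0.11, adjusted p = 0.857). The liver X receptor gene *Nr1h2* was lower (-1.69, adjusted p = 0.00362). The Leydig sum was 529 and 1118 in WT LZ and 2514 to 6671 in SKO LZ. The macrophage sum was 18.3 and 76.1 against 175 to 809, and the immediate early sum 1003 and 2241 against 5880 to 7161. The spermatid sum was 14434 and 18870 against 195 to 284, with *Odf1* and *Acrv1* at 0 in SKO.

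**Figure D5:**
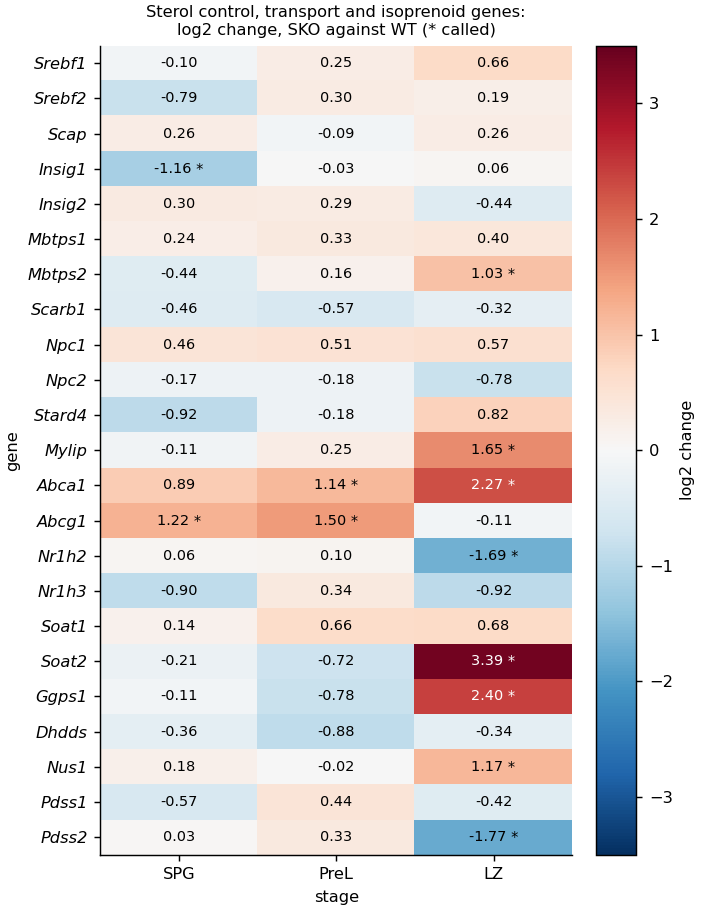
Log2 change of SKO against WT (numbers and colour, red higher and blue lower in SKO) of 23 genes of sterol control, transport and isoprenoid branches (rows) in SPG, PreL and LZ (columns), with an asterisk on called genes. *Insig1* (-1.16) is lower in SPG, and *Soat2* (3.39) and *Ggps1* (2.40) are the largest changes in LZ.

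The genotype effects of the stages were then compared with each other in 1 fit of all 17 libraries, by the interaction of genotype and stage and the adjusted p alone. Between PreL and SPG 0 of the 6 genes passed, against 0.251% of all genes with a higher effect in PreL. DESeq2 and edgeR also gave 0, and by limma 2 of the 6, *Fdps* and *Idi1*, had an unadjusted p under 0.05, while on the ERCC-calibrated scale all 6 passed with a higher effect in PreL, as did 5938 of the 13530 genes tested, with a median of 0.94 over all genes. *Fdps* came closest, with an effect 0.89 higher in PreL (SE 0.29, adjusted p = 0.158).

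Between LZ and PreL 2 of the 6 genes differed. The effect on *Fdft1* was lower in LZ by 1.67 (SE 0.36, adjusted p = 0.00148), against 23.1% of all genes with a lower effect in LZ, and the effect on *Lss* was 1.20 higher in LZ (SE 0.29, adjusted p = 0.00322), against 15.1% with a higher one. The difference of *Lss* was lost on the ERCC-calibrated scale (0.34, adjusted p = 0.417) and with RPM scaling (0.74, adjusted p = 0.0515), where *Idi1* passed with a lower effect in LZ (-1.28, adjusted p = 0.00120, and -0.87, adjusted p = 0.00570). The difference of *Fdft1* ran from -2.26 to -1.09 with 1 library left out and passed each time. The effect on *Sqle* was 0.77 higher in LZ without passing (adjusted p = 0.0585).

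The comparison of LZ with SPG was added after the values were seen. Here 5 of the 6 genes differed, *Fdft1* with a lower effect in LZ, against 25.4% of all genes, and *Fdps*, *Sqle*, *Lss* and *Cyp51* with a higher effect, against 16.8%. The effect on *Lss* differed by 1.41 (SE 0.29, adjusted p = 0.000709), on *Fdps* by 1.30 (SE 0.30, adjusted p = 0.00208) and on *Sqle* by 1.02 (SE 0.31, adjusted p = 0.0125). *Cyp51* differed by 0.69 (adjusted p = 0.0240), and *Fdft1* by -1.10 (adjusted p = 0.0199). *Idi1* did not pass (0.31, adjusted p = 0.366). Without WT LZ library 2 the count fell to 3, since *Sqle* (adjusted p = 0.0782) and *Cyp51* (adjusted p = 0.0888) no longer passed. Without WT LZ library 3 the effect on *Fdft1* fell to -0.52 (adjusted p = 0.231) and *Idi1* passed at 0.72 (adjusted p = 0.0266). On the ERCC-calibrated scale *Fdft1* did not pass (-0.97, adjusted p = 0.0639). With RPM scaling 2 of the 6 genes passed in place of 5. The median effect of all genes differed by -0.23 between these stages.

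Along development, all 6 genes were lower in PreL than in SPG in WT. Their median log2 change was -0.31, beside 0.0055 over all genes tested. None of the 6 was called by limma, against 1.21% of all genes called lower, and DESeq2 and edgeR likewise called 0, while *Idi1* and *Fdps* had an unadjusted p under 0.05. *Fdps* was lower in PreL with an adjusted p of 0.0403 and a log2 change of -0.56, against 3.02% of all genes lower by the adjusted p alone. From PreL to LZ in WT, *Fdft1* was called higher (1.42, SE 0.34, adjusted p = 0.0140), against 18.8% of all genes, and *Cyp51* lower (-1.04, SE 0.23, adjusted p = 0.00996), against 7.8%. *Lss* was lower with -0.77 (adjusted p = 0.0371), short of the fold threshold. The count of 2 fell to 1 without WT LZ library 2 or 3 and without WT PreL library 2 or 4.

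In SKO 0 of the 6 genes were called from SPG to PreL, against 1.62% of all genes called higher, and 0 by DESeq2 and edgeR. Only *Idi1* of the 6 had an unadjusted p under 0.05 by limma there, with the largest log2 change, 0.42 (adjusted p = 0.158). From PreL to LZ in SKO none was called by limma, DESeq2 or edgeR, against 6.93% of all genes called lower and 10.6% called higher, and 5 of the 6 had an unadjusted p under 0.05. By the adjusted p alone *Idi1* (-0.53, adjusted p = 0.0152) and *Cyp51* (-0.47, adjusted p = 0.0177) were lower, against 19.1% of all genes, and *Fdps* (0.60, adjusted p = 0.0296) and *Lss* (0.54, adjusted p = 0.0289) higher, against 17.8%. *Fdft1*, which rose from PreL to LZ in WT, had a log2 change of -0.14 in SKO (95% interval -0.47 to 0.18). The stage comparisons share libraries with the genotype comparisons and are not independent of them.

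The directions depended on the scale in PreL. On the ERCC-calibrated values as deposited, the median log2 change of all genes tested was 0.73 in PreL and -0.25 in SPG and in LZ. On that scale *Idi1*, *Fdps*, *Fdft1*, *Sqle* and *Cyp51* had positive log2 changes in PreL, from 0.16 to 0.64, and *Lss* was at -0.04. Relative to the median of all genes, the 6 genes stayed below it in PreL, by 0.09 to 0.77 with the calibrated values and by 0.12 to 0.79 with the rescaled ones. In SPG all 6 were lower on both scales, and the calibrated values called 4 of them. The calibrated values also turned the balance of all calls, with 585 genes called lower and 3459 higher in PreL in place of 765 and 701, and 578 lower and 399 higher in SPG in place of 266 and 508. With RPM scaling, 4556 genes were called lower and 1166 higher in LZ in place of 3534 and 1837. On the calibrated scale the summed level of the 6 genes relative to WT SPG was 2.96 in WT LZ and 1.94 in SKO LZ, in place of 0.895 and 0.644, since each LZ library was multiplied by a larger factor, 3.25 to 10.4.

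Across the 17 libraries, the genes did not follow a single profile. *Sqle* and *Lss* were the most alike, with a Pearson correlation of 0.87 over the 17 libraries. *Fdps* was nearest to *Lss* (0.61) and *Idi1* to *Fdft1* (0.50), while *Fdft1* and *Cyp51* were the least alike (-0.29). Among 8660 genes averaging 100 reads or more per library, the 5 closest to the mean standardized profile of the 6 genes were *Rpl32* (0.92), *Cpsf1* (0.88), 2410091C18Rik (0.87), *Fancd2* (0.86) and *Snrnp25* (0.85). *Dhcr7* ranked 319 of the 8660 (0.60) and *Insig1* 520 (0.53). These correlations describe libraries that share groups, and no test was made of them.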

How the data were processed

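Smart-seq2 libraries (oligo(dT) primed, with ERCC spike-in RNA) of 17 sorted samples were analysed. The authors aligned reads to mm10 with TopHat2 2.1.1 and counted them with HTSeq 0.11.2 (Cufflinks 2.2.1 and DESeq2 are also named in their methods), and deposited a single table of counts multiplied by 1 ERCC-derived factor per library. These values are a signal, not raw counts. Dividing by each library's step gave whole reads for 100% of the deposited signal values within a tolerance of 0.01.

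For each comparison, its libraries were rescaled with size factors (median of ratios). Genes averaging 10 or more recovered reads were tested with limma 3.58.1 (trend, R 4.3.3) on log2(value + 10), so that changes of low genes are understated, with Benjamini-Hochberg adjustment over all genes tested. A call needed an adjusted p under 0.05 and a log2 change beyond 1, and an interaction the adjusted p alone. edgeR 4.0.16 and DESeq2 1.42.0 on recovered reads were alternatives. The fit was tested on simulated data.

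The 7 genes and all lists were chosen with earlier results of these data known. Named were the 7 genes, *Srebf2*, *Insig1*, *Dhcr7*, *Nat10*, up to 3 called genes per list with the largest change, and the 5 genes most alike in profile. Some genes of the pathway are not reported here. Gene positions are from GENCODE M21. Of the symbols, 20864 matched directly, 1941 through older symbols and 477 not at all. Reads per kilobase use exon lengths.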

Additional observations from a re-analysis of the deposited data

Results flagged for a closer look

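The genotype effect differed between stages, as tested with an interaction term across the 17 libraries (limma), for these genes. Between LZ and PreL the effect on *Fdft1* differed by -1.67 and that on *Lss* by 1.20 on the log2 scale. The *Lss* difference did not pass with ERCC-calibrated values (0.34, adjusted p = 0.417) or RPM scaling (0.74, adjusted p = 0.0515), and that of *Fdft1* ran from -2.26 to -1.09 with 1 library left out. Between LZ and SPG, a comparison added after the values were seen, the effect differed by 1.30 for *Fdps*, -1.10 for *Fdft1*, 1.02 for *Sqle*, 1.41 for *Lss* and 0.69 for *Cyp51*. The WT LZ group has 2 libraries, which stand apart for *Fdft1*, and late spermatocyte markers were far higher there than in SKO LZ. The part of these markers in the differences was not tested.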

How the results depend on the processing

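Over the 18 genotype results of the 6 genes, 318 of 336 alternative fits kept the direction. This count includes the setting without the fold threshold, which repeats the main estimate and so cannot change its direction. The cause of the changes below was not tested. In SPG the count of 1 called gene became 4 with ERCC-calibrated values, 2 with TMM scaling, 2 with a pseudocount of 1, 5 without the fold threshold, 3 with the length and GC correction, and 1 to 3 when 1 library was left out. In PreL the count of 0 became 2 without the fold threshold. In LZ the count of 1 became 2 with RPM scaling and was 1 to 2 with 1 library left out.

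Whether the replicate numbers pair the libraries could not be told. The deviations of same-numbered libraries from their group means had correlations of -0.19 to 0.13. With so few libraries per group, these values cannot decide it. The replicate block gave 2 called genes in SPG, kept the counts in PreL and LZ, and gave 3 in place of 2 between LZ and PreL and 4 in place of 5 between LZ and SPG. It could not be fitted for WT LZ against WT PreL.

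Of the interactions, PreL against SPG went from 0 to 6 with ERCC-calibrated values (5938 of all genes higher, 147 lower). LZ against PreL went from 2 to 4 with edgeR and was 2 to 3 with 1 library left out. With ERCC-calibrated values and RPM scaling it stayed at 2, but *Idi1* passed in place of *Lss*. LZ against SPG went from 5 to 2 with RPM scaling and was 3 to 5 with 1 library left out. *Cyp51* was lost there without WT SPG 2 (adjusted p = 0.0626) or SKO LZ 3 (adjusted p = 0.0574).

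Of the stage comparisons, WT PreL against SPG went from 0 to 1 without the fold threshold. WT LZ against PreL went from 2 to 5 with ERCC-calibrated values (all 5 higher, so that *Cyp51* was no longer called lower, beside 10992 genes higher and 15 lower), to 1 with RPM scaling, to 1 in 1 fit of all libraries and to 1 to 2 with 1 library left out. SKO PreL against SPG went from 0 to 6 with ERCC-calibrated values (5657 genes higher, 30 lower), and SKO LZ against PreL from 0 to 3 with them (4409 higher, 152 lower) and to 4 without the fold threshold.

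The summed level relative to WT SPG moved with ERCC-calibrated values to 0.445 in SKO SPG, 1.10 in SKO PreL, 2.96 in WT LZ and 1.94 in SKO LZ. RPM scaling gave 0.475 in SKO LZ and 0.763 in WT PreL, and TMM scaling 0.610 in SKO LZ.

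The directions that turned were these. *Fdps* in LZ, at -0.0028, became 0.012 in 1 fit of all libraries, 0.0063 with DESeq2, 0.015 with edgeR, 0.035 with the length and GC correction, 0.0074 with the replicate block, 0.019 without SKO LZ 1, 0.045 without SKO LZ 3 and 0.27 without WT LZ 2, with a range of -0.32 to 0.27 when 1 library was left out. In PreL with ERCC-calibrated values *Cyp51* became 0.52, *Fdft1* 0.64, *Fdps* 0.33, *Idi1* 0.47 and *Sqle* 0.16. *Fdft1* in PreL became 0.065 without SKO PreL 3 and 0.095 without WT PreL 1, in a range of -0.28 to 0.095. With RPM scaling *Cyp51* in LZ became -0.12 and *Sqle* -0.20, the *Fdps* effect between LZ and PreL -0.058, and the *Idi1* effect between LZ and SPG -0.078. With ERCC-calibrated values the effects between LZ and PreL became -0.40 for *Cyp51*, -0.46 for *Fdps* and -0.10 for *Sqle*. Between PreL and SPG the *Lss* effect became -0.0049 without SKO SPG 1, in a range up to 0.38. Without WT LZ 2, the *Idi1* effect between LZ and SPG became -0.11, in a range up to 0.72, and *Sqle* in LZ became -0.11, in a range up to 0.42. Fits that left WT LZ with 1 library assume that it varies like the other groups.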
